A study of Homo sapiens with 12 samples.

Results

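Keratins and epithelial junction genes were examined in HCT116 cells, a human colon cancer line, with and without the stress-induced transcription factor ATF3. The set held 10 genes: the keratins KRT7, KRT8, KRT18 and KRT19, the adhesion molecules CDH1 and EPCAM, the claudins CLDN4 and CLDN7, and the transcription factors ELF3 and KLF5. Every probe of the bead array that named one of these genes was taken, which gave 13 probes of the 30098 that named 1 gene and 10 of 20036 genes. All 13 passed the detection filter (detection p below 0.01 on at least 3 arrays), so that 10 of 10 genes were among the 10464 genes tested. KRT18 had 2 probes and EPCAM had 3, and the brightest stood for the gene.

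Expression was measured on 12 arrays, 3 for each of 4 groups. HCT116 cells that were wild type for ATF3 (WT) or ATF3 knockout (KO) received the vehicle DMSO or 1.5 µM camptothecin (CPT), a topoisomerase inhibitor that damages DNA, for 4 h. The knockout had been made by homologous recombination with a viral vector that removed a short piece of exon 3 of ATF3, and all KO arrays carried 1 clone name, E11, so that a property of that clone and an effect of the knockout cannot be told apart. The labels do not name separate cultures, and replicate spread, on which each p-value rests, may therefore be technical.

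Keratins form the intermediate filaments of epithelial cells, in which a type II keratin such as KRT8 or KRT7 pairs with a type I keratin such as KRT18 or KRT19. CDH1 (E-cadherin) holds neighbouring cells together at adherens junctions, claudins seal the tight junctions above them, and EPCAM is a surface adhesion molecule of simple epithelia. ELF3 is an epithelium-specific factor of the ETS family and KLF5 is a zinc-finger factor of proliferating crypt cells.

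ATF3 binds as a dimer to DNA elements of the ATF/CRE and AP-1 types, and promoter windows of the genes were therefore searched for the letters TGACGTCA (ATF/CRE) and TGAGTCA or TGACTCA (AP-1). Each motif set reads the same on both strands and the ATF/CRE letters do not contain the AP-1 letters. Of the 10 genes, 5 had windows in the RefSeq table of GRCh38.p14, 7 windows in all, each running from 250 bases before to 50 bases after an annotated start. TGACGTCA was in 1 of the 7 windows, against 1.85% of all 35116 windows in the table, and an AP-1 match was in 1 of 7, against 4.95%. The windows of CLDN7 (chr17:7262429-7262728, minus strand, the more downstream of its 2 starts), CLDN4 (chr7:73830746-73831045, plus strand) and ELF3 (chr1:202010337-202010636, plus strand) are shown because the first pair held the matches, in capitals, and because ELF3 had the largest KO to WT difference of the set. The match began at position -116 from the start in CLDN7 and at position -161 in CLDN4. A match is a description of letters, and whether ATF3 was bound there was not tested.
CLDN7: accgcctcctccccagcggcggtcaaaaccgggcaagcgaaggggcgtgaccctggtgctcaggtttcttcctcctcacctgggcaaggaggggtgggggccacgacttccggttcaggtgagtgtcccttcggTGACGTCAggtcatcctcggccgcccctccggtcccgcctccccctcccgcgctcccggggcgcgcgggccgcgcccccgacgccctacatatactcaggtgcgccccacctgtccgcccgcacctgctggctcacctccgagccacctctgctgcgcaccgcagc
CLDN4: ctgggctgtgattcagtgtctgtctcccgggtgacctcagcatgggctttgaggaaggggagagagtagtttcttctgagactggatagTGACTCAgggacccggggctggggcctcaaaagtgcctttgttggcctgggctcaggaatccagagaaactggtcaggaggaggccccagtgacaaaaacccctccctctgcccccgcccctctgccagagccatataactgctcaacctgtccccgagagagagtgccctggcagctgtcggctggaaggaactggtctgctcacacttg
ELF3: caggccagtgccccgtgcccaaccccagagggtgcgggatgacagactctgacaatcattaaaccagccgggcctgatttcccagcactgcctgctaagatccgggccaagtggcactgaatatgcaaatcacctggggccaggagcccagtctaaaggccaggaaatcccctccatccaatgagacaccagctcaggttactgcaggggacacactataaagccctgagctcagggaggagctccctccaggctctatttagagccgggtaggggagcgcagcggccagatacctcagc

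The arrays detected 13713 to 16823 probes each. The targeted gene gave raw signals of 168, 156.8 and 390.4 (WT) against 127.1, 117 and 130.9 (KO) with DMSO, and of 1123.3, 992.8 and 1713.8 (WT) against 289.8, 254 and 282.1 (KO) with CPT. The ATF3 probe was thus lower on each KO array than on any WT array of the same treatment, and it still rose with CPT in KO cells. No source used here places the probe relative to the deleted piece, so its level does not measure the loss of the protein. Of 9 colon epithelial markers, EPCAM, CDH1, KRT8, KRT18, KRT19 and CDX2 were detected on all 12 arrays, while CDX1, LGALS4 and CEACAM5 were detected on none. Of 21 markers of other cell types on the array, 12 were detected on no array, among them PTPRC of leukocytes, PECAM1 of endothelium and COL3A1 of fibroblasts. With the probe detected most often, COL1A1, COL1A2, DCN and APOA1 were each detected on 1 array. By the same measure LYZ was detected on 4 arrays, CD14 on 6 (all with CPT), ALB on 11, and ACTA2 and VIM on 12. The summed normalized level (linear scale) of the 5 that were tested (CD14, LYZ, ACTA2, ALB and VIM) was 249 to 368 in WT and 316 to 421 in KO cells under DMSO, and 608 to 827 in WT and 602 to 872 in KO cells under CPT. The part of these transcripts in the results below was not tested. In bulk samples fewer cells of a type and less RNA per cell cannot be told apart.

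Without CPT, KO cells had less KRT7 than WT cells, and 8 of the 10 genes had a difference below zero. Of all 10464 genes tested, 5099 had one. The median difference over the 10 was -0.46 on the log2 scale, beside 0.01 over all genes tested. KRT7 passed the test (limma, p adjusted by Benjamini-Hochberg over the 10464 genes, threshold 0.05), 1 gene of 10, where 1.01% of all genes passed. Detected on WT arrays alone, KRT7 had met the detection filter only through the groups where it was high. With the replicate number as a block, KRT7, CDH1, ELF3 and CLDN7 passed, all lower in KO cells, where 4.48% of all genes passed. The 3 KO arrays and the 3 WT arrays did not overlap for 7 of the 10 genes (KRT7, KRT18, CDH1, CLDN4, CLDN7 and KLF5 lower, KRT19 higher), where 18.4% of all genes did not overlap. The 10 genes were chosen with earlier results of these data known. Shares of the set, here and under CPT, are therefore no independent evidence of a direction. KRT7, CLDN4 and KLF5 were detected on no KO array under DMSO, so their KO values there are upper limits only, and CLDN4 was detected on 2 of the 3 WT arrays and had raw signals that overlapped. Under CPT 6 of the 10 genes had a difference below zero, as did 4909 of all 10464. The median there was -0.32, beside 0.02 over all genes. KRT7 and ELF3 passed, both lower in KO cells, where 0.736% of all genes passed. With the block CLDN7 passed as well, where 4.23% of all genes passed, and 4 of 10 genes did not overlap (KRT7, CDH1, ELF3 and CLDN7), against 13.5% of all genes. The comparisons under DMSO and under CPT share no arrays. Both rest on the same KO clone, and deviations from group means correlated between same-numbered arrays, so they are not independent repeats.

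**Figure D1:**
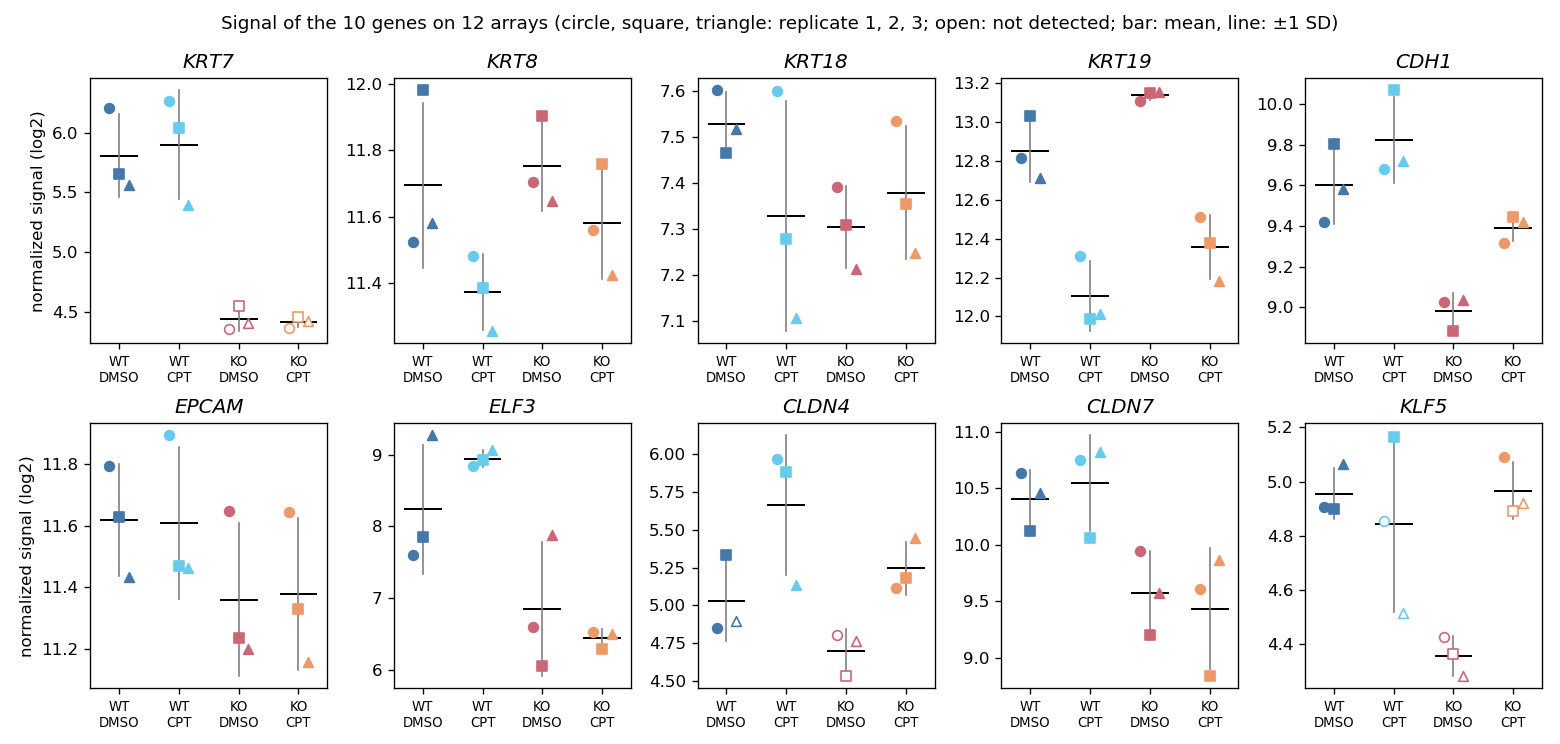
Normalized signal on the log2 scale (vertical axes, a scale of its own for each gene) of the 10 genes on the 12 arrays, by group; marker shape gives the replicate number, open markers are arrays without detection, the bar is the group mean and the line ±1 SD (n = 3). KRT7 was open on all 6 KO arrays, ELF3 in KO cells under CPT lay below every WT array, and KRT19 was lower under CPT than under DMSO in both genotypes.

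Among the keratins, KRT7, a type II keratin of ductal and transitional epithelia, had raw signals in WT cells of 178.5, 144.8 and 132.4 with DMSO and 153.6, 137.1 and 117.4 with CPT. In KO cells they were 94.9, 105.2 and 103.5 with DMSO and 97.1, 101.9 and 100.2 under CPT. It was detected on 6 of 6 WT arrays and on no KO array. Its signal was at least 1.90-fold lower in KO than in WT cells under DMSO (fitted difference -1.37 ± 0.23, SE, n = 3, adjusted p = 0.0110) and at least 1.84-fold lower under CPT (-1.49 ± 0.23, adjusted p = 0.00867). A bound is given because a probe without detection has only an upper limit, here the lowest signal among detected probes. The KRT7 call under DMSO ended without WT DMSO replicate 1, KO DMSO replicate 1 or KO DMSO replicate 3 (highest adjusted p = 0.0652), and the call under CPT ended without KO CPT replicate 2 (adjusted p = 0.0501). With replicates 2 and 3 alone neither passed (adjusted p = 0.204 and 0.170), with differences of -1.05 and -1.20. The KRT7 calls also ended without background correction, where the differences were -0.46 and -0.51, smaller in size than the bounds above (adjusted p = 0.0667 and 0.0509), and with the authors' values (-1.74 and -1.87, adjusted p = 0.0991 and 0.0866). Under CPT the call ended with scaling to the median of all probes (-1.30, adjusted p = 0.0751) as well.

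KRT8, the type II keratin of simple epithelia, had raw signals of 3501.6, 4277.9 and 3046.3 in WT and 3282.5, 3468.2 and 3214.5 in KO cells under DMSO. The genotypes overlapped, and the log2 difference of 0.06 had a 95% confidence interval of -0.31 to 0.43 (adjusted p = 0.985). Under CPT the KRT8 difference between KO and WT cells was 0.21 (-0.16 to 0.58). KRT18, its type I partner, differed by -0.22 (-0.58 to 0.13, adjusted p = 0.786) under DMSO and by 0.05 (-0.30 to 0.41) under CPT with the probe used. The other KRT18 probe differed by -0.35 (-0.78 to 0.08, adjusted p = 0.674) under DMSO. Under CPT it differed by -0.47 (-0.89 to -0.04, adjusted p = 0.456, and 0.0817 with the block). Same-numbered arrays differed there by -0.56, -0.32 and -0.52 with that probe. KRT19, a type I keratin without a tail domain, was 0.29 higher in KO cells under DMSO (-0.06 to 0.63, adjusted p = 0.642) and 0.25 higher under CPT (-0.09 to 0.60). Its 3 KO arrays under DMSO, at 8151.1, 7845.8 and 8476.2, overlapped the WT arrays, at 7811.8, 8189.5 and 6158.9, before normalization but not after it. The RefSeq table lists 52 pseudogenes of KRT8 and 68 of KRT18, and the KRT8 and KRT18 gene spans overlap on chromosome 12, so that signal shared with copies cannot be separated here.

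**Figure D2:**
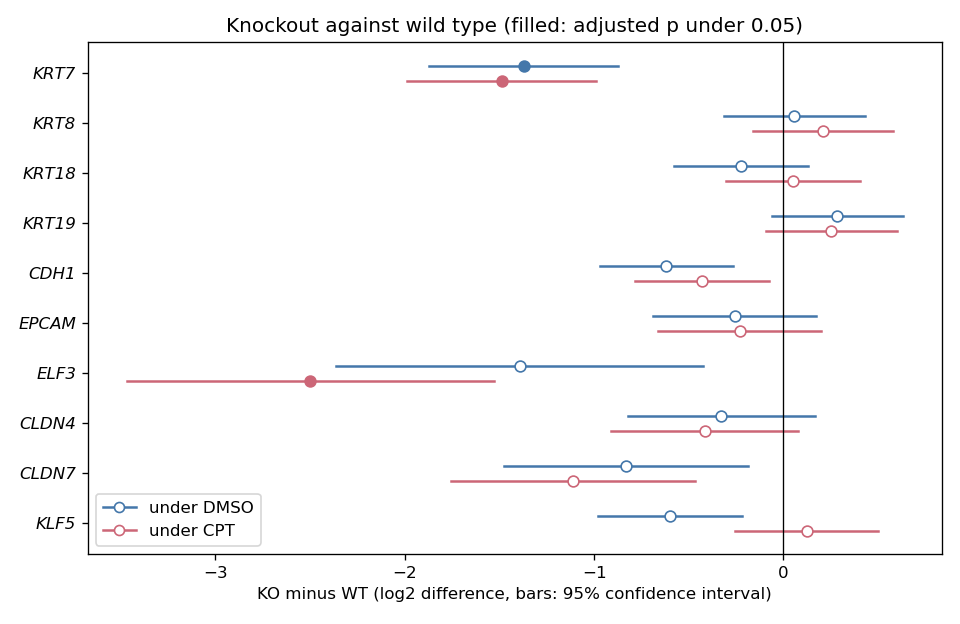
Log2 difference between KO and WT cells (horizontal axis) for the 10 genes under DMSO (blue) and CPT (red), 3 arrays per group; lines are 95% confidence intervals and filled points have an adjusted p under 0.05. KRT7 and, under CPT, ELF3 were filled, and the intervals of KRT8, KRT18, KRT19, EPCAM and CLDN4 crossed zero under both treatments.

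ELF3 had the largest difference of the set. Its raw signals in WT cells were 347.7, 373.4 and 740.9 with DMSO and 558.2, 495.7 and 502.1 with CPT. In KO cells ELF3 gave 196.6, 154.6 and 349.5 under DMSO and 173.9, 147.4 and 149.6 under CPT. Replicate 3 stood highest in both genotypes under DMSO, and the KO array of that number reached the level of the lowest WT array before normalization. After it, that KO array (7.88 on the log2 scale) lay above WT replicates 1 and 2 (7.60 and 7.85). Under CPT, all KO arrays lay below all WT arrays. ELF3 was 5.66-fold lower in KO than in WT cells under CPT (-2.50 ± 0.45, adjusted p = 0.0213). This call ended without WT CPT replicate 1 or 2 or any of the KO CPT replicates 1, 2 and 3 (highest adjusted p = 0.107, without KO CPT replicate 2), and with replicates 2 and 3 alone (-2.60, adjusted p = 0.250). It ended too with no detection filter (adjusted p = 0.0662) and with the authors' values (-2.42, adjusted p = 0.0542). The difference itself stayed between -2.54 and -2.42 in the fits that left out 1 array. Under DMSO the ELF3 difference was -1.39 ± 0.45 (adjusted p = 0.237, and 0.0334 with the replicate block), and same-numbered arrays differed by -0.999, -1.79 and -1.39.

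KLF5 lay near background. Its raw signals under DMSO were 111.7, 118.4 and 117.4 in WT and 97.1, 100 and 98.6 in KO cells, with detection on 3 of 3 WT and 0 of 3 KO arrays. The bound was at least 1.05-fold lower in KO cells, and the fitted difference of -0.60 ± 0.17 did not pass (adjusted p = 0.175, and 0.0570 with the block). Under CPT the KLF5 probe was detected on 1 array of each genotype, and the difference was 0.12 (-0.26 to 0.50, adjusted p = 0.930).

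Of the junction genes, CDH1 gave raw signals of 971.6, 1133.6 and 896.9 in WT and 656.8, 564.7 and 655.9 in KO cells under DMSO, without overlap. The CDH1 difference of -0.62 ± 0.16 missed the threshold (adjusted p = 0.120) and passed it with the block (adjusted p = 0.0291) and without background correction (-0.55, adjusted p = 0.0456). Under CPT the signals were 957.6, 1041.8 and 758.6 in WT and 747.7, 685.7 and 616.7 in KO cells, and the difference was -0.43 ± 0.16 (adjusted p = 0.353, and 0.110 with the block). CLDN7, a claudin that EPCAM binds, gave 1982.3, 1369.2 and 1530.1 in WT and 1125.7, 675.8 and 893.1 in KO cells under DMSO. Under CPT, CLDN7 gave 2016.2, 1034.4 and 1687.9 in WT and 902.6, 471.0 and 818.6 in KO cells. Replicate 2 was the lowest array in each of these 4 groups, and the KO arrays lay below the WT arrays under both treatments after normalization. The CLDN7 differences were -0.83 ± 0.30 (adjusted p = 0.311) and -1.11 ± 0.30 (adjusted p = 0.131), and both passed with the block (adjusted p = 0.0127 and 0.00326). Between same-numbered arrays CLDN7 differed by -0.69, -0.92 and -0.88 under DMSO and by -1.15, -1.22 and -0.96 under CPT.

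CLDN4, a claudin bound by a bacterial enterotoxin, was near the detection limit under DMSO, with 2 of 3 WT and 0 of 3 KO arrays detected (110.0, 132.0 and 113.5 against 106.1, 104.8 and 112.6). Its differences of -0.33 (-0.82 to 0.17) and -0.42 (-0.91 to 0.08) did not pass (adjusted p = 0.766 and 0.603). For EPCAM the probe used differed by -0.26 (-0.69 to 0.17, adjusted p = 0.814) under DMSO and -0.23 (-0.66 to 0.20, adjusted p = 0.825) under CPT. The other EPCAM probes differed by -0.39 and -0.32 under DMSO and by -0.31 and -0.34 under CPT, so that all 3 EPCAM probes were below zero in both treatments and none passed (adjusted p of 0.417 or higher).

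**Figure D3:**
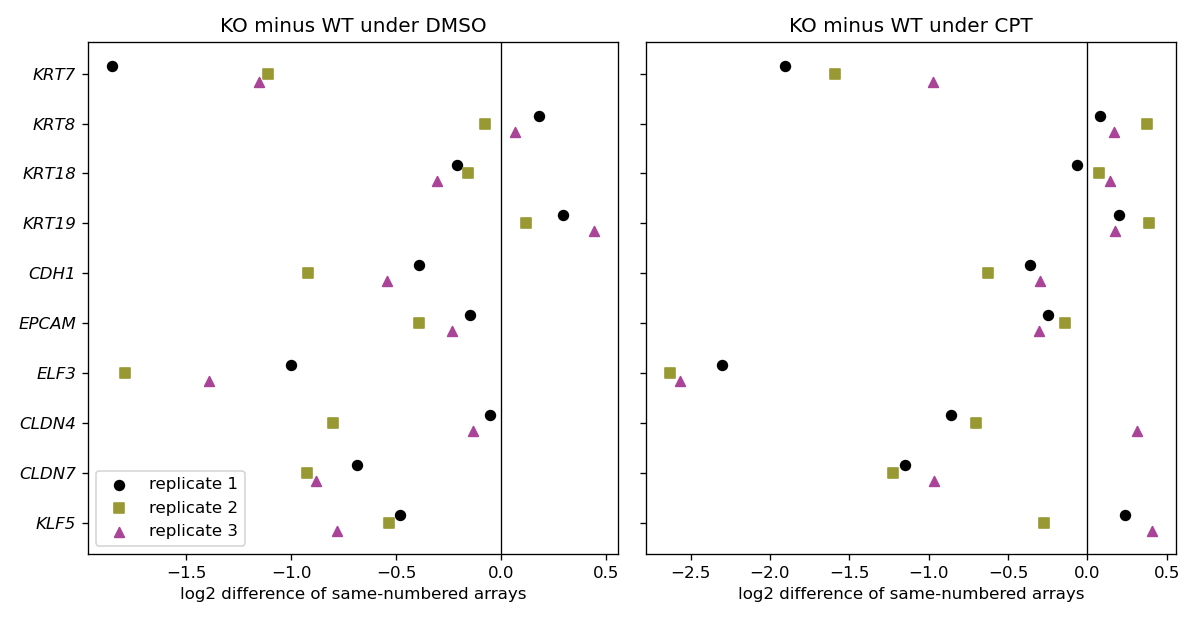
Log2 difference between the KO and the WT array of the same replicate number (horizontal axes) for the 10 genes, under DMSO (left) and CPT (right). KRT7, CDH1, EPCAM, ELF3 and CLDN7 lay below zero in all 3 replicates of both treatments, while KLF5 lay below zero in all 3 under DMSO and in 1 of 3 under CPT.

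CPT left most of the set without a call. In WT cells KRT19 was lower after CPT, 1 of 10 genes, where 31.5% of all genes passed. In KO cells KRT19 was lower and KLF5 higher, 2 of 10 genes, where 31.8% of all genes passed. The medians over the 10 genes were 0.04 and -0.00, beside 0.03 and 0.03 over all genes, and 2 genes in WT and 4 in KO cells did not overlap between treatments, where 40.5% and 48.9% of all genes did not. With the replicate block, KRT19 and CLDN4 passed in WT cells, where 49.3% of all genes passed, and KRT19, KLF5 and CDH1 passed in KO cells, where 48.6% of all genes passed. The shares of the set were thus no higher than those of all genes. Both KO to WT comparisons share arrays with these, so the values are given side by side without a test between them.

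Raw KRT19 signals in WT cells fell from 7811.8, 8189.5 and 6158.9 with DMSO to 5979.8, 4274.1 and 4112.6 with CPT, and in KO cells from 8151.1, 7845.8 and 8476.2 to 6601.3, 5428.7 and 4551.1. All CPT arrays lay below all DMSO arrays of their genotype. The change was -0.75 ± 0.16 in WT (adjusted p = 0.00409) and -0.78 ± 0.16 in KO cells (adjusted p = 0.00315), and it passed in each fit that left out 1 array (highest adjusted p = 0.0226 in WT and 0.0162 in KO cells). With the authors' values the WT change was -0.73 and did not pass (adjusted p = 0.0650). The size of the KRT19 change rested on the scaling. With each array scaled to the median of the probes detected on all 12 arrays, it was -0.07 in WT (adjusted p = 0.725) and -0.19 in KO cells (adjusted p = 0.341), while the median of all genes moved to 0.25 and 0.19. Relative to that median, the KRT19 change was -0.31 and -0.37, against -0.78 and -0.81 with quantile normalization. With scaling to the median of all probes it was -0.61 in WT (adjusted p = 0.0385) and -0.56 in KO cells (adjusted p = 0.0640), with medians of all genes of -0.30 and -0.19.

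KRT8 changed by -0.32 in WT cells (-0.69 to 0.05, adjusted p = 0.173), where the CPT arrays (3370.9, 2729.6 and 2296.2) lay below the DMSO arrays after normalization, and by -0.17 in KO cells (-0.54 to 0.20). With scaling to the detected probes these KRT8 values turned positive, 0.20 and 0.27, neither of them called. KRT7 changed by 0.09 in WT and by -0.02 in KO cells, the latter between groups without detection.

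KLF5 was 0.61 ± 0.17 higher with CPT in KO cells (adjusted p = 0.0186), from 97.1, 100 and 98.6 to 113.5, 109.9 and 109.0, with detection on 0 of 3 and 1 of 3 arrays. The groups did not overlap, and the bound was at least 1.06-fold higher. The KLF5 call ended without KO CPT replicate 1 or KO DMSO replicate 2 or 3 (highest adjusted p = 0.0628). It ended also with replicates 2 and 3 alone (0.55, adjusted p = 0.118) and with an offset of 50, where the value dropped to 0.26 (adjusted p = 0.0695). In WT cells KLF5 changed by -0.11 (-0.49 to 0.27, adjusted p = 0.664). CLDN4 in WT cells went from 110.0, 132.0 and 113.5 to 139.9, 131.8 and 112.9, a change of 0.63 ± 0.23 (adjusted p = 0.0511, and 0.0319 with the block). Detection of CLDN4 went from 2 to 3 of 3 arrays in WT and from 0 to 3 of 3 in KO cells, where it was at least 1.29-fold higher (fitted change 0.54 ± 0.23, adjusted p = 0.0874). The WT CLDN4 value passed without WT DMSO replicate 2 (adjusted p = 0.0427) or WT CPT replicate 3 (0.91, adjusted p = 0.00397), and the KO value passed without WT CPT replicate 3 (adjusted p = 0.0269).

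CDH1 changed by 0.22 ± 0.16 in WT (adjusted p = 0.324) and by 0.41 ± 0.16 in KO cells, where it missed the threshold (adjusted p = 0.0720) and passed with the block (adjusted p = 0.0275), without background correction (adjusted p = 0.0328) and with an offset of 50 (adjusted p = 0.0407). ELF3 changed by 0.70 ± 0.45 in WT (adjusted p = 0.252) and by -0.40 ± 0.45 in KO cells (adjusted p = 0.532). Without WT DMSO replicate 3, the array with the highest raw ELF3 signal, the change in WT cells was 1.22 (adjusted p = 0.0397). CLDN7 changed by 0.14 in WT (-0.50 to 0.78) and by -0.14 in KO cells (-0.78 to 0.51). Scaled to the detected probes, CLDN4 passed in both genotypes (0.92 and 0.76, adjusted p = 0.00629 and 0.0174) and CDH1 passed in KO cells (0.55, adjusted p = 0.0252).

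The probes of 2 genes gave different CPT responses. The KRT18 probe used (ILMN_1803408) changed by -0.20 in WT and 0.08 in KO cells, and the other (ILMN_1730848) by 0.44 (adjusted p = 0.114, and 0.0191 with the block) and 0.32 (adjusted p = 0.242). In the same-numbered WT arrays the second KRT18 probe changed by 0.48, 0.46 and 0.36 and the first by -0.00, -0.19 and -0.41. The EPCAM probe used (ILMN_2160210) changed by -0.01 and 0.02, and ILMN_3249032 by -0.08 and -0.10. The third EPCAM probe (ILMN_2160209) changed by 0.51 in WT (adjusted p = 0.0733, and 0.0253 with the block) and by 0.58 ± 0.20 in KO cells (adjusted p = 0.0443), with all CPT arrays above all DMSO arrays in both genotypes after normalization. Its raw signals in KO cells, 184.9, 178.8 and 197.1 with DMSO and 201.3, 182.3 and 211.1 with CPT, overlapped. With scaling to the detected probes the EPCAM probe used changed by 0.51 in WT cells and passed (adjusted p = 0.0351), and with scaling to all probes the KRT18 probe used changed by -0.76 in WT cells and passed (adjusted p = 0.0385). No table used here gives the probe positions, and the transcripts each probe reads were not compared.

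**Figure D4:**
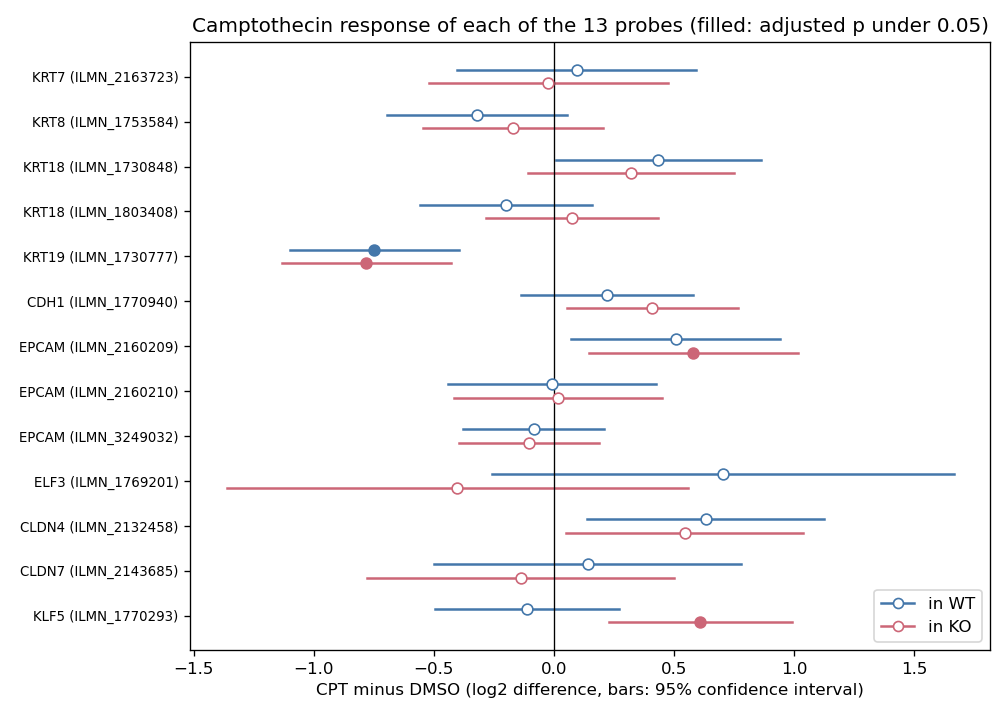
Log2 change with CPT (horizontal axis) of each of the 13 probes in WT (blue) and KO cells (red), 3 arrays per group; lines are 95% confidence intervals and filled points have an adjusted p under 0.05 in the fit over all probes. KRT19 was filled in both genotypes at -0.75 and -0.78, and 1 of 3 EPCAM probes and the KLF5 probe were filled in KO cells.

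The CPT responses of KO and WT cells passed no test of their difference at the adjusted threshold for any of the 10 genes, and 0% of all genes passed this test (limma with the replicate block). At an unadjusted p under 0.05 in the same limma fit, ELF3 and KLF5 differed. The share of all genes under that unadjusted threshold was not counted, so nothing can be read from their number. The ELF3 response was lower in KO cells, by a difference of -1.11 ± 0.45 (adjusted p = 0.937), with same-numbered differences of -1.31, -0.84 and -1.17. The KLF5 response was 0.72 ± 0.22 higher in KO cells (adjusted p = 0.844), with same-numbered differences of 0.72, 0.26 and 1.19, in a probe detected on 5 of the 12 arrays. The methods' paired t-test gave 893 of the 10464 genes tested at an unadjusted p under 0.05 and 0 after Benjamini-Hochberg adjustment. ELF3 was the only one of the 10 among the former. In the lists of related genes described next, no gene passed the limma test with the replicate block. The smallest p of their lists in that fit belonged to EHF (-0.78 ± 0.23, adjusted p = 0.767), CGN (1.195 ± 0.33, adjusted p = 0.752), DSC3 (0.76, adjusted p = 0.925), PRSS8 (0.62, adjusted p = 0.927), KRT10 (0.38), JUP (0.37), TCF3 (0.24) and LYZ (0.11).

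Other genes of the same structures were counted for comparison, from the fit over all genes. The lists were drawn up with earlier results for MAL2, ANXA10 and TWIST1 known, so their counts are no independent evidence of a direction. Of all genes, 1.01% passed between genotypes under DMSO and 0.736% under CPT. With CPT, 31.5% passed in WT and 31.8% in KO cells. Of 6 other keratins tested, KRT80 was lower in KO cells under DMSO (-2.03 ± 0.28, adjusted p = 0.00263) and under CPT (-1.61 ± 0.28, adjusted p = 0.0171), and the other KRT80 probe differed by -0.87 and -0.35 (adjusted p = 0.0655 and 0.624). KRT23 ran the other way, with differences of 1.38 ± 0.33 under DMSO and 1.41 ± 0.33 under CPT, which did not pass (adjusted p = 0.0806 and 0.0813) but passed in the blocked fit (adjusted p = 0.0142 and 0.0146). The 4 keratins left passed in neither fit of a KO to WT comparison. With CPT, KRT13, a keratin of non-cornified stratified epithelia (-1.56 ± 0.40, adjusted p = 0.0113), and KRT23 (-0.94 ± 0.33, adjusted p = 0.0457) were lower in WT cells. In KO cells KRT15 was lower (-0.76 ± 0.25, adjusted p = 0.0366) and KRT10 higher (0.77 ± 0.20, adjusted p = 0.0110).

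Of 19 other claudin and tight junction genes, none passed in either KO to WT comparison and the medians were -0.20 and -0.17. The smallest p belonged to the polarity scaffold PALS1 under DMSO (-1.01 ± 0.27, adjusted p = 0.132, and 0.0131 with the block) and to the polarity gene CRB3 under CPT (-0.68 ± 0.18, adjusted p = 0.138, and 0.0114 with the block). With CPT, 4 rose and 2 fell in WT cells, and 3 rose and 2 fell in KO cells, shares of the list near or below the 31.5% and 31.8% of all genes that passed. TJP1 (ZO-1), the scaffold that ties claudins to actin, fell by 2.47 on the log2 scale in WT (adjusted p = 6.88e-06) and by 2.16 in KO cells (adjusted p = 1.52e-05). CLDN23 rose in both (1.05 ± 0.20 and 0.93 ± 0.20, adjusted p = 0.00225 and 0.00443), as did CLDN12 (0.48 and 0.89, adjusted p = 0.0442 and 0.00185). CLDN15 (0.95, adjusted p = 0.0237) and CLDN14 (0.59, adjusted p = 0.0246) rose in WT cells. The other CLDN14 probe changed by 0.26 there and did not pass (adjusted p = 0.486). In KO cells 1 of 3 MARVELD3 probes rose (0.90, adjusted p = 0.0250), where the others changed by -0.10 and -0.24. With scaling to the median of all probes neither CLDN12 nor CLDN23 passed in either genotype, while TJP1 passed under each scaling tried.

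Of 11 adherens junction genes, JUP (plakoglobin), which links cadherins to the cytoskeleton, was lower in KO cells under DMSO (-0.82 ± 0.15, adjusted p = 0.0208), and none passed under CPT, where JUP had the smallest p (-0.45 ± 0.15, adjusted p = 0.271). The other JUP probes differed by -0.36 and -0.65 under DMSO (adjusted p = 0.730 and 0.200), so that 1 of 3 passed. With CPT, NECTIN3 fell, with changes of -2.86 in WT (adjusted p = 0.00113) and -3.34 in KO cells (adjusted p = 0.00043), and VCL (vinculin, -1.13 and -1.31, adjusted p = 0.00968 and 0.00431) and LIMA1 (-0.59 and -0.67, adjusted p = 0.0319 and 0.0178) fell as well. JUP (0.55, adjusted p = 0.0157, other probes 0.62 and 0.68 with adjusted p = 0.0538 and 0.0193) and the P-cadherin gene CDH3 (0.64, adjusted p = 0.0176) rose in KO cells. Of 11 desmosome and plakin genes none passed between genotypes. The smallest p belonged to the desmosomal cadherin DSC3 under DMSO (-0.96 ± 0.23, adjusted p = 0.0756, and 0.0253 with the block, other probe -0.08) and to PKP4 under CPT (1.15 ± 0.29, adjusted p = 0.105, and 0.0297 with the block). With CPT, PERP, a p53 target of desmosomes, rose in WT (0.93 ± 0.17, adjusted p = 0.00177) and KO cells (0.90 ± 0.17, adjusted p = 0.00203), while 2 genes fell in each (PKP2 and PKP4 in WT, PKP2 and DSC2 in KO cells, where the other DSC2 probe changed by -0.24).

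**Figure D5:**
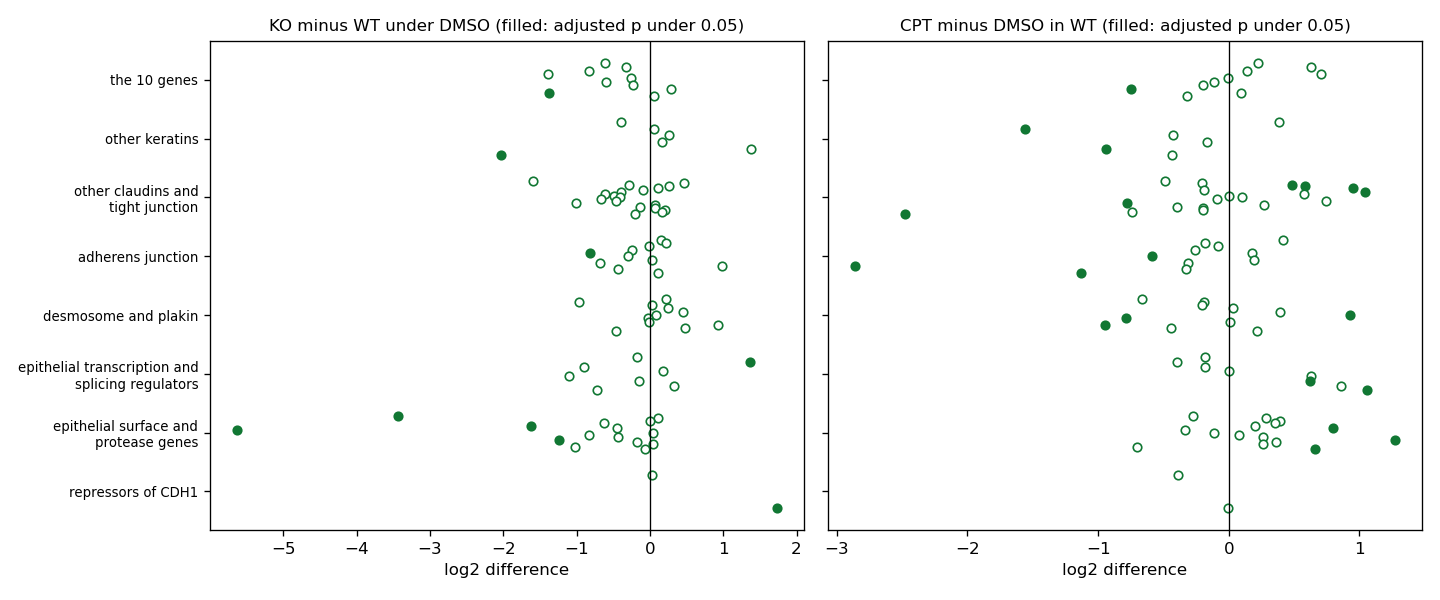
Log2 difference between KO and WT cells under DMSO (left) and between CPT and DMSO in WT cells (right) for the 10 genes and 7 lists of related genes, each point a gene and each row a list; filled points have an adjusted p under 0.05. Filled points below zero in the left panel lay among the 10 genes (KRT7), other keratins (KRT80), adherens junction genes (JUP) and surface genes (4 genes), and TJP1 and NECTIN3 lay farthest left in their rows of the right panel.

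Of 8 other epithelial transcription and splicing regulators, EHF, an ETS factor of the same subfamily as ELF3, was higher in KO cells under DMSO (1.37 ± 0.18, adjusted p = 0.00176), opposite in sign to ELF3. Under CPT none passed between genotypes, and the splicing regulator ESRP1 had the smallest p (-1.11 ± 0.25, adjusted p = 0.0693, and 0.00537 with the block). With CPT, EHF fell by 1.18 in KO cells (adjusted p = 0.000457), and TFAP2C rose in WT (1.06 ± 0.24, adjusted p = 0.00558) and KO cells (1.62 ± 0.24, adjusted p = 0.000422). OVOL1 rose in WT (0.62, adjusted p = 0.0281) and KLF4 in KO cells (0.98, adjusted p = 0.0110). Of 10 repressors of CDH1 listed, 2 were tested, and TWIST1, detected on no WT array, was at least 2.72-fold higher in KO cells under DMSO (adjusted p = 0.00186) and at least 2.22-fold higher under CPT (adjusted p = 0.00557). Detected on KO arrays alone, TWIST1 had met the detection filter only through the groups where it was high. The other, TCF3, changed by -0.39 with CPT in WT (adjusted p = 0.116, and 0.0231 with the block) and by -0.15 in KO cells (adjusted p = 0.570).

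Of 15 epithelial surface and protease genes, 4 were lower in KO cells under each treatment, with MAL2, ANXA10, LCN2 and S100A14 at -5.63, -3.43, -1.62 and -1.24 under DMSO (adjusted p of 0.0447 or lower). Of all genes, 1.01% passed under DMSO and 0.736% under CPT in either direction. MAL2 and ANXA10 were listed with their earlier results known. With CPT, S100A14 rose in WT (1.27 ± 0.26, adjusted p = 0.0032) and in KO cells (0.73 ± 0.26, adjusted p = 0.0499), and so did LSR, a receptor of tricellular junctions (0.80 and 0.97, adjusted p = 0.0202 and 0.00771). TSPAN1 rose in WT cells (0.66, adjusted p = 0.0328). In KO cells CD9 rose (0.56, adjusted p = 0.0425) and the mucin MUC1 fell (-0.62, adjusted p = 0.0498). Their other probes changed by 0.25 (CD9, adjusted p = 0.346) and -0.48 (MUC1, adjusted p = 0.187) and did not pass. The mesenchymal filament gene VIM was 0.84 higher in KO cells under DMSO (adjusted p = 0.0447) and 0.78 higher under CPT (adjusted p = 0.0736, and 0.00442 with the block). The other VIM probe differed by 1.32 and 1.49 (adjusted p = 0.0843 and 0.0526). CD14, ACTA2, ALB and VIM all rose with CPT in both genotypes. The other VIM probe changed by 0.36 in WT and 0.53 in KO cells (adjusted p = 0.414 and 0.222). Detected on CPT arrays alone, CD14 had met the detection filter only through the groups where it was high. Scaled to all probes, the CPT rises of PERP, LSR and VIM in both genotypes, of OVOL1, TSPAN1, CLDN14, CLDN15 and ALB in WT cells and of KLF4, JUP, CDH3, CD9, MARVELD3 and S100A14 in KO cells missed the threshold, as did VIM under DMSO and LCN2 under CPT between genotypes. Scaled to the detected probes, the falls of VCL and LIMA1 in WT cells and of PKP2 and MUC1 in KO cells missed it, as did the rise of S100A14 in KO cells. None of these values changed sign.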

How the data were processed

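Total RNA of HCT116 cells was measured on Illumina HumanHT-12 v4 arrays. The authors deposited unscaled bead signal intensity for 47300 probes, exported from GenomeStudio (version not given in the sources used here), each with its detection p-value against the negative control beads, and intensity values after background subtraction and quantile normalization. Sorted, the values of the latter differed on average by 0.0148 within replicate 1, 0.0167 within replicates 2 and 3 and 47.3 between them, so these sets had been normalized apart.

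The unscaled signals were corrected with nec (offset 16), quantile-normalized and log2-transformed. The filter kept 17264 probes (detection p below 0.01 on 3 or more arrays). Probes with exactly 1 gene were used (8 named several and 17194 none), symbols came from RefSeq (30059 matched, 39 not), and the brightest probe stood for each gene (2647 genes had more than 1). limma 3.58.1 in R 4.3.3 (lmFit, eBayes, two-sided, Benjamini-Hochberg over 10464 genes) was fitted to all 12 arrays with a mean per group, and with the replicate number as a block for the difference in CPT response; it was tested on simulated data. Groups came from the labels. Deviations from group means correlated at 0.25 to 0.69 in the 18 same-numbered pairs of arrays and at -0.59 to 0.03 in the others, so the numbers pair the samples, as seen in the data. Where no array of a group detected a probe, the bound uses the lowest detected signal. The number of arrays limits the precision.

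The 10 genes and the lists were chosen with earlier results of these data known. Named are all 10 genes, ATF3, and up to 4 called members of each list per comparison (the single gene of smallest p in a list without calls). KRT8 and KRT19 were also compared with all genes over the arrays. Alternatives were other scalings, background corrections, offsets, detection filters, the authors' values, single probes, the block, replicates 2 and 3 alone and leaving out each array.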

Additional observations from a re-analysis of the deposited data

Results flagged for a closer look

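The point estimates of the KRT18 response to CPT had opposite signs in the genotypes with the probe used, but not with the other. They were -0.20 in WT (-0.55 to 0.15) and 0.08 in KO cells (-0.28 to 0.43), and both intervals included zero. With the probe used, same-numbered arrays changed by -0.00, -0.19 and -0.41 in WT cells and by 0.14, 0.05 and 0.04 in KO cells. The fitted KRT18 difference between the responses was 0.28 ± 0.17, and it did not pass (adjusted p = 1.00, limma with the block). The other KRT18 probe rose in all 3 replicates of both genotypes, with a difference of -0.11 between them (-0.53 to 0.30).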

How the results depend on the processing

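The 10 genes were recounted under each alternative. KO against WT under DMSO gave 1 call, and 0 with probes detected on all 12 arrays, with the authors' values or with replicates 2 and 3 alone, 4 with the replicate block, and 0 to 1 without 1 array. Without background correction the count of 1 was CDH1 in place of KRT7. KO against WT under CPT gave 2, and 1 with scaling to the median of all probes (chosen after seeing the data), with no background correction, with probes detected on all 12 arrays or with no detection filter, 0 with the authors' values or replicates 2 and 3 alone, 3 with the block, and 0 to 2 without 1 array. CPT in WT cells gave 1, and 2 with either median scaling or the block, 0 with the authors' values, and 1 to 2 without 1 array. CPT in KO cells gave 2, and 1 with scaling to all probes, with probes detected on all 12 arrays or with replicates 2 and 3 alone, 3 with the block, with scaling to the detected probes, with no background correction or with every probe tested on its own, and 1 to 3 without 1 array. With an offset of 50 the count of 2 held CDH1 in place of KLF5. The difference in response gave 0, and 1 with the methods' paired t-test unadjusted. EPCAM with CPT in WT cells went from -0.01 to 0.51 with scaling to the detected probes (adjusted p = 0.0351 from limma). KRT7, CLDN4 and KLF5 could not be tested with probes detected on all 12 arrays. Of 1035 alternative values of single genes and ATF3, 989 kept their direction or were uncalled in both, 17 gained and 28 lost a call, and 1 turned; 55 uncalled values changed sign. The cause of these changes was not tested. Over all genes, CPT calls in WT cells were 1362 higher and 1937 lower, and 2700 and 1543 with scaling to the detected probes, 278 and 3045 to all probes, and 421 and 1002 with the authors' values. In KO cells they were 1450 and 1877, and 2198 and 1575, 433 and 2443, and 461 and 962. Calls of KO against WT went from 106 to 469 under DMSO and from 77 to 443 under CPT with the block, to 46 and 19 with the authors' values and to 26 and 10 with replicates 2 and 3 alone. Signals of CLDN4, KLF5 and of KRT7 in KO cells lay near background, which limits what can be read from them.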

Other observations

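Over the 12 arrays, the genes whose normalized signal followed KRT8 most closely were ZNF326 (Pearson r = 0.93), HECTD2 (0.90) and IFT88 (0.89). For KRT19 they were MACIR, KRR1 and NCOA6 (0.98 each). These were the highest r among all genes tested and carry no p; the arrays share their treatment groups and replicate sets, and after removal of the group means the r were 0.89, 0.84 and 0.80 for KRT8 and 0.72, 0.83 and 0.65 for KRT19.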
